A study of Homo sapiens with 6 samples.

Results

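The genes described here encode small membrane proteins that cross the bilayer 4 times or more, in the MARVEL family (MYADM, MAL, MAL2, PLLP, CMTM3 and CMTM8) and the PMP22/EMP family (EMP1, EMP2, EMP3 and PMP22). They were taken by symbol, and all 10 had a row among the 59050 gene symbols of the count files. The list was drawn up with the SMARCA4 knockout against parental comparison of these same libraries in view, so the members' differences in that comparison are given as a description, with no test read from them. The data are RNA-seq reads counted per gene in 6 samples of the human lung cancer line H2122. The genotype is labelled SMARCA4 KO in 3 samples and WT in the other 3, which are called parental. All 6 came from vehicle-treated cells, and how the knockout was made is not given in the sources used here. SMARCA4 (BRG1) is an ATPase subunit of SWI/SNF, a family of chromatin remodellers. A number in the titles reads 1 for every knockout sample and 1, 3 or 6 for the parental samples, and its meaning is not stated. The deposited count tables are numbered 1, 2 and 3 for the knockout, so titles and tables differ on this point. Whether the knockout samples are 1 clone is not stated, and if they are, clone and genotype cannot be told apart. The labels do not say whether replicates were grown separately, so the p-values reflect the spread between these samples, which may be technical.

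MARVEL proteins insert in cholesterol-rich, raft-like membrane and take part in sorting cargo and building membrane domains at the apical face of epithelia, at tight junctions and in myelin. MAL is a carrier component for apical delivery in polarised epithelia, MAL2 is needed for the transcytotic route to the same surface, and PLLP (plasmolipin) is a myelin and apical endosome protein. MYADM (myeloid-associated differentiation marker) has been described in raft organisation, cell spreading and endothelial barrier function, and the CMTM proteins act on the trafficking of surface receptors. The PMP22/EMP proteins share a claudin-like fold. PMP22 is a protein of compact myelin whose gene dosage is altered in Charcot-Marie-Tooth disease, and the epithelial membrane proteins EMP1, EMP2 and EMP3 are its relatives outside the nerve.

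The promoter windows of the PMP22/EMP genes and of MYADM are shown because they belong to a family whose make-up differed between the groups and to the member with the largest difference. Each is 300 bases of RefSeq sequence on GRCh38.p14, from 250 bases before the transcript start to 50 bases from it, written 5′ to 3′ on the strand of the gene. Capitals mark any match, on either strand, to CACCTG (the E-box of ZEB and SNAI factors), TGANTCA (AP-1-like, with any base at N) or GGAATG (TEAD). They also mark ACCGGT (the core of the site bound by Grainyhead-like factors), GGGCGG (the box bound by SP1 and its relatives) and TATAAA (the box bound by TBP). For PMP22 the first 2 of 3 listed starts are given, since PMP22 is known to use different starts in different cell types. For MYADM the first of 3 and for EMP3 the first of 2 are given.
EMP1, chr12:13196476-13196775, plus strand: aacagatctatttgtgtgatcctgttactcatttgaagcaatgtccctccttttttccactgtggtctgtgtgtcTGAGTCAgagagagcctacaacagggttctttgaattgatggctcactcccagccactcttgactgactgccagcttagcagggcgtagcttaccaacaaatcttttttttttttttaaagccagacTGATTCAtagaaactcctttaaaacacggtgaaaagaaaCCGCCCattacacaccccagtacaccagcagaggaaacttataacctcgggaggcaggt
EMP2, chr16:10580549-10580848, minus strand: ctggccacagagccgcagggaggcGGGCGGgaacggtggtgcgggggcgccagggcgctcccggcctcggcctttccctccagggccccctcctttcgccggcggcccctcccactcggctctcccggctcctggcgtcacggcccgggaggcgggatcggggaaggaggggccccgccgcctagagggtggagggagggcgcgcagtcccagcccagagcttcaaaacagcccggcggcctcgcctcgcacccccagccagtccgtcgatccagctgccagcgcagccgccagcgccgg
EMP3, chr19:48325302-48325601, plus strand: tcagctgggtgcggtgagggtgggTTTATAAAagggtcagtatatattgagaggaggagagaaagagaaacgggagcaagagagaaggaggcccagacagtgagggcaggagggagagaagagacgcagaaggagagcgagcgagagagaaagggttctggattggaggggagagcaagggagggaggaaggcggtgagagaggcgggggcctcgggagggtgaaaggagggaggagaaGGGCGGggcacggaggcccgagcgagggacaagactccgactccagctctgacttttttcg
PMP22 start 1, chr17:15265277-15265576, minus strand: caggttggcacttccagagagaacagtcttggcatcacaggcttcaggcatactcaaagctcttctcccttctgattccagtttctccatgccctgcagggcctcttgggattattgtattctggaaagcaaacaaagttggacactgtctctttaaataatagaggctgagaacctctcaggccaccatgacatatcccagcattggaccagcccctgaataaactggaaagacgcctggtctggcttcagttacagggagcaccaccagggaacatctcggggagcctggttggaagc
PMP22 start 2, chr17:15262503-15262802, minus strand: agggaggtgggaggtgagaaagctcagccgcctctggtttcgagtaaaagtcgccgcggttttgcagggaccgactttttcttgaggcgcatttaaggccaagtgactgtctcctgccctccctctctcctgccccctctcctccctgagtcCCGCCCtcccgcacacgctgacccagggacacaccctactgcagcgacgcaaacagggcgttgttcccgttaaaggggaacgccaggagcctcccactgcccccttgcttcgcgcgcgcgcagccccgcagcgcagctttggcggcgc
MYADM, chr19:53866121-53866420, plus strand: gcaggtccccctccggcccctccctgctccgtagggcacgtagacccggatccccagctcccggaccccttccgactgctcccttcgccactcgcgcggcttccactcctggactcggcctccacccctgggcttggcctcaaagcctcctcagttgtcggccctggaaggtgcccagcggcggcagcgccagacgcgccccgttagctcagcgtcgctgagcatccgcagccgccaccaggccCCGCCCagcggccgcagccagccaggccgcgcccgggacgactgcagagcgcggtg
The table of promoters held 16 windows for 9 of the 10 members. The windows differed in base composition: EMP2 had 33 CpG dinucleotides and MYADM 31, against a median of 14 over all 35116 windows of the table, while EMP1 had 4 and the first PMP22 window 2. The second PMP22 window had 24 and the EMP3 window 14. EMP1 was the only one of the 9 matched members with a TGANTCA match in a window, as TGAGTCA at -175 and TGATTCA at -48 relative to the start. Of all windows 7.71% hold at least 1 such match. The SP1 box GGGCGG stood in 5 of the 6 windows shown, all but the first of PMP22, and in 45% of all windows. The EMP3 window had a TATAAA match on each strand, at -226 and -224 and overlapping each other, and 11.5% of all windows hold that word. No E-box letters were found in the 6 windows shown, and they were present in a window of PLLP, CMTM3 and CMTM8 and in 20.6% of all windows. The 6 windows shown also held no GGAATG and no ACCGGT, which stood in 14% and 1.83% of all windows. Of the windows not shown, the third of MYADM held GGAATG at -1 and TATAAA at -130, and the second of EMP3 had 4 CpG dinucleotides and none of the motifs. These matches are letters in a window and not measured sites, and the read counts do not separate the starts of a gene.

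Between 55120937 and 59917980 reads per library were assigned to genes. Levels are CPM, the reads of a gene scaled by the library total and its TMM factor, and a limit of 3 reads per library lay between 0.0497 and 0.0544 CPM, which covers counting error only. SMARCA4 itself stood at 20.7, 19.3 and 24.9 CPM in the KO samples, against 232, 215 and 335 CPM in the parental samples. The second principal component, which held 19% of the variance, set parental replicate 3 apart from the rest. Over the 17809 genes tested, the median distance of parental replicate 3 from the mean of the other parental samples was 0.52 on the log2 scale. Of all genes tested, 27.6% passed an adjusted p of 0.05 by edgeR's quasi-likelihood test, made up of 13.3% that were higher and 14.3% that were lower in the knockout. The CPM ranges of KO and parental samples were apart for 49.8% of the genes tested. Among the members, 9 of 10 had enough reads to be tested, of which 3 passed as higher (MYADM, EMP3 and PMP22), 2 as lower (EMP2 and MAL2) and 4 did not pass. For 6 of the 9 the ranges of KO and parental samples were apart. Nothing is read from these counts, since the members were chosen on this comparison. In bulk samples, fewer cells of a type and less RNA per cell cannot be told apart. Without parental replicate 3 all 9 passed, 5 higher and 4 lower, beside 61.6% of all genes tested in that fit.

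**Figure D1:**
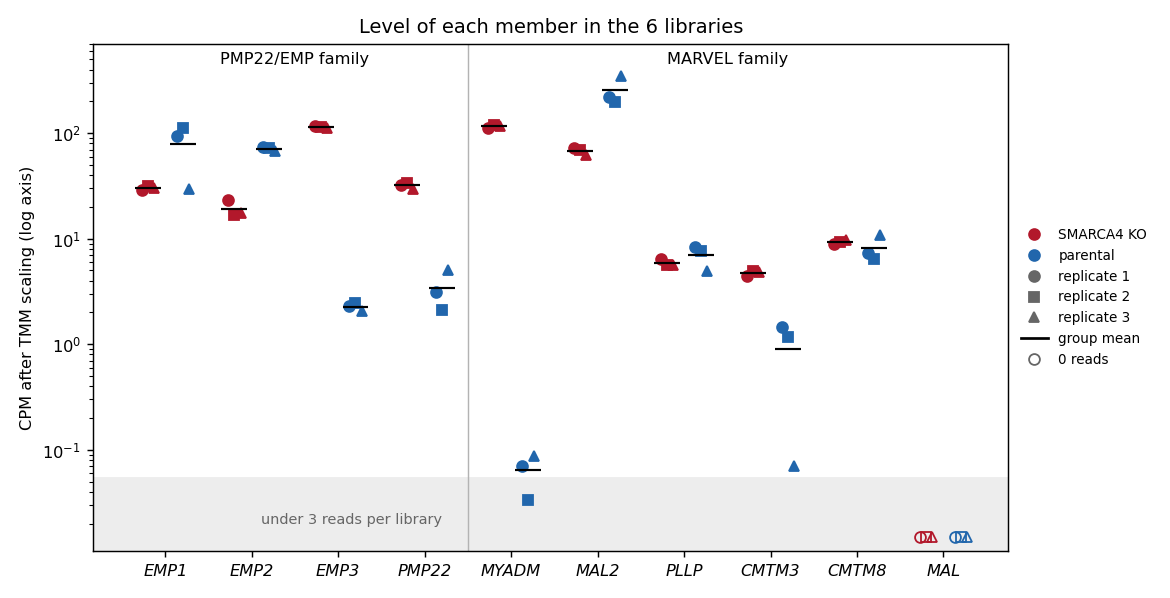
Level of each member in CPM after TMM scaling (log axis) in the 3 SMARCA4 KO libraries (red, left of each pair) and the 3 parental samples (blue), with marker shape for the replicate and a line for the group mean. EMP3 lies between 112 and 118 CPM in the KO samples and between 2.06 and 2.445 CPM in the parental ones, and MAL has 0 reads in all 6.

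In the PMP22/EMP family, EMP3 and PMP22 were higher in the KO samples and EMP2 was lower, while EMP1 in the KO samples was below 2 of the 3 parental samples. EMP3 (chromosome 19, 48321509 to 48330553 on GRCh38, plus strand) stood at 118, 114 and 112 CPM in the KO samples and at 2.31, 2.445 and 2.06 CPM in the parental samples. The groups lay far apart and each was tight, with a coefficient of variation of 2.63% in the knockout group and 8.66% in the parental group. The knockout mean was 50.5 times the parental mean, a log2 fold change of 5.66 (SE 0.12, n = 3 each), and 286 of the 17809 genes tested had a larger absolute change. Leaving out any 1 library kept it between 5.54 and 5.71. Of the EMP3 exon bases, 13% are shared with CCDC114 on the opposite strand, which had 8, 8 and 20 reads in the KO samples and 6, 4 and 2 reads in the parental samples.

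PMP22 (chromosome 17, 15229777 to 15265357, minus strand) had 32.5, 33.7 and 29.8 CPM in the KO samples, against 3.1, 2.11 and 5.08 CPM in the parental samples. All KO samples were above all parental ones, and parental replicate 3 was the highest of its group. The ratio of the means was 9.33 and the log2 fold change 3.22 (SE 0.33), which was 3.57 without parental replicate 3. The myelin genes of Schwann cells and oligodendrocytes, in which PMP22 and PLLP are abundant, did not share a direction here. Of 14 such genes 5 were tested, of which 60% passed, beside 27.6% of all genes tested. PRX, which encodes periaxin, rose to 12.5 ± 0.258 CPM in KO samples, against 5.79 ± 1.18 CPM in the parental samples (SD, n = 3; edgeR adjusted p = 0.00621). Of the others 2 fell, among them MBP, which encodes myelin basic protein (log2 fold change -0.78, edgeR adjusted p = 0.00655), and 2 did not pass. With any 1 KO sample left out, 1 rose and 1 fell, where 14.6% to 15.2% of all genes tested passed. With parental replicate 3 left out, 1 rose and 4 fell, where 61.6% of all genes tested passed. The defining genes MAG, SOX10 and S100B had 0 reads in all 6 libraries, and the summed level of the list was 134 to 140.4 CPM in KO samples and 168 to 209.8 CPM in the parental samples.

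EMP2 (chromosome 16, 10528422 to 10580698, minus strand), known for acting on integrin, caveolin and focal adhesion kinase signalling, had 23.1, 16.8 and 17.7 CPM in the KO samples and 73.4, 71.75 and 67.2 CPM in the parental samples. Here the parental samples lay close together, parental replicate 3 included, at a coefficient of variation of 4.59%, and the KO samples varied more, at 17.8%. The mean was 3.68-fold lower in the knockout (log2 fold change -1.88, SE 0.15, and between -2.03 and -1.78 with any 1 library left out). EMP1 (chromosome 12, 13196716 to 13219939, plus strand), described in epithelial tight junctions and squamous differentiation, had 29, 31.5 and 30 CPM in the KO samples. In the parental samples it had 94.9, 110.9 and 29.4 CPM. Parental replicate 3 thus fell inside the knockout range, and the other parental samples were each above 90 CPM. The log2 fold change was -1.38 (SE 0.46) over all 6 libraries and -1.82 without parental replicate 3. The gap between parental replicate 3 and its group, -1.8 on the log2 scale, was exceeded in absolute size by 6.41% of the genes tested.

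The make-up of the family differed between the groups when levels are set per kilobase of annotated exon. Lengths are the union of a gene's annotated exons, from 1667 bases for EMP3 to 8718 for EMP2, and the shares depend on them. EMP3 made up 81.2% ± 0.487 of the summed CPM per kb of the 4 genes in the KO samples and 6.9% ± 1.52 in the parental samples (SD, n = 3 each). EMP1 made up 4.54% ± 0.265 in the KO samples and 45.7% ± 16.9 in the parental samples, and EMP2 2.59% ± 0.4 in KO samples and 41.5% ± 11 in the parental samples. PMP22 held 11.7% ± 0.554 in KO samples and 5.98% ± 4.46 in the parental samples. EMP1 held the largest share in parental replicates 1 and 2, at 52.9% and 57.8%, and EMP2 held it in parental replicate 3, at 54%. The summed level of the family was 82.3 to 87.2 CPM per kb in the KO samples and 14.3 to 24.5 CPM per kb in the parental samples.

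**Figure D2:**
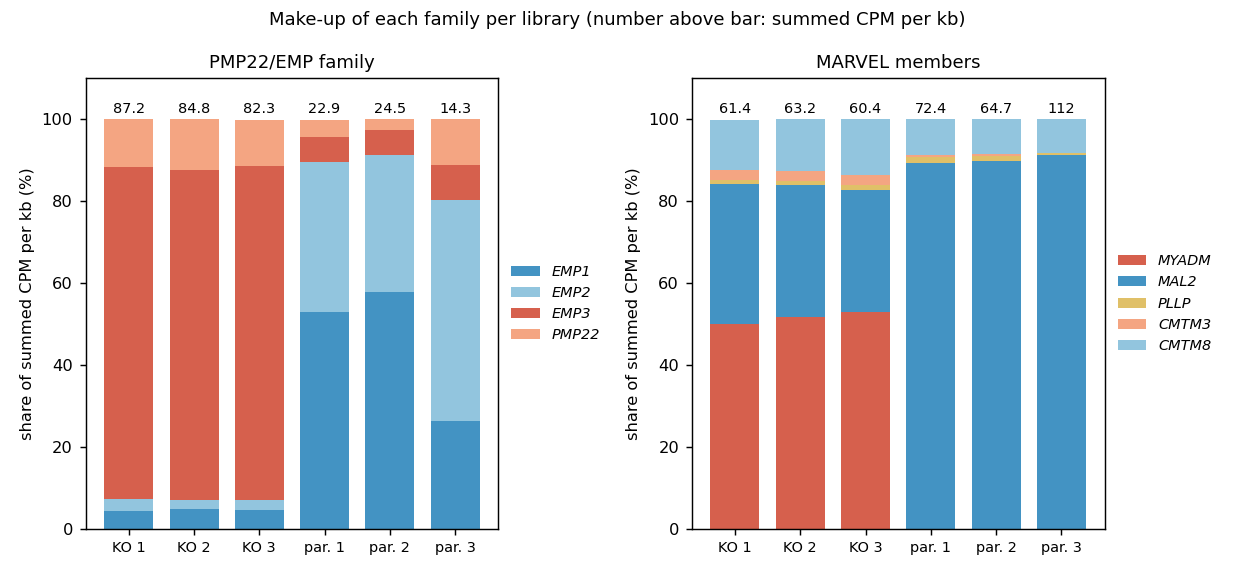
Share of each gene in the summed CPM per kb of its family (%, stacked bars) in the 3 SMARCA4 KO libraries (left) and the 3 parental samples (right), with the summed CPM per kb above each bar. EMP3 takes 80.7% to 81.6% of the PMP22/EMP level in the KO samples, and MAL2 takes 89.4% to 91.2% of the MARVEL level in the parental samples.

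Among the MARVEL genes, MYADM was near the detection limit in the parental samples and abundant in the knockout ones, MAL2 was lower in the knockout, and MAL had no reads anywhere. MYADM (chromosome 19, 53866223 to 53876437, plus strand) was counted at 6388, 6623 and 7086 reads in the KO samples and at 4, 2 and 5 reads in the parental samples, that is 112.9, 120.2 and 117 CPM in KO samples and 0.07005, 0.0335 and 0.0879 CPM in the parental samples. Parental replicate 2 was under the limit of 3 reads. The pooled ratio was 1840, with a 95% counting interval of 1030 to 3700 that covers counting error only. The log2 fold change was 10.8 (SE 0.24), and 7 of the 17809 genes tested had a larger absolute change. Per kilobase, among the 17363 tested genes with an annotated length, MYADM was above 93.1% in the KO samples and above 0.962% in the parental samples. MYADM made up 51.5% ± 1.42 of the summed CPM per kb of the MARVEL members in the KO samples and 0.0206% ± 0.00615 in the parental samples, and MAL2 made up 32.1% ± 2.11 in the KO samples and 90.1% ± 0.966 in the parental samples.

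AC008440.2, an antisense gene sharing 423 exon bases with MYADM, had 12, 5 and 11 reads in the KO samples and 0 in each parental library. Whether the counting used strand is not given, so reads of the antisense gene and of MYADM cannot be told apart where they overlap. The nearest tested protein-coding gene on the side of lower coordinates, ZNF761, lay 407962 bases away and did not pass (12.97 ± 0.216 CPM in KO samples and 11.95 ± 1.82 CPM in the parental samples, adjusted p = 0.595).

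MAL2 (chromosome 8, 119165034 to 119245673, plus strand) had the highest level per kilobase of all members in the parental samples. It stood at 71.85, 69.8 and 61.9 CPM in the KO samples and at 222, 199 and 350.2 CPM in the parental samples. The groups did not overlap, and parental replicate 3 was the highest library. The mean was 3.79-fold lower in the knockout (log2 fold change -1.92, SE 0.23, and -1.68 without parental replicate 3). MAL (chromosome 2, 95025677 to 95053996), the founding member of the family, had 0 reads in all 6 libraries, which allows up to 0.0497 to 0.0544 CPM per library. MALL, its close relative, was measured at 170.1 ± 9.22 CPM in KO samples and 185.4 ± 43.0 CPM in the parental samples and did not pass (adjusted p = 0.646).

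PLLP (chromosome 16, 57248547 to 57284687, minus strand) had 6.38, 5.61 and 5.68 CPM in the KO samples, against 8.30, 7.62 and 4.98 CPM in the parental samples. The groups overlapped through parental replicate 3, and the log2 fold change was -0.24 (SE 0.22), or -0.48 without that library. PLLP shares 1733 exon bases, on the opposite strand, with ARL2BP, an ARL2-binding protein gene. Part of the PLLP exons (19.9%) can therefore not be counted for PLLP alone without strand. ARL2BP rose to 78.4 ± 2.01 CPM in KO samples, against 47.7 ± 8.59 CPM in the parental samples (log2 fold change 0.72, edgeR adjusted p = 0.016), a call lost without any 1 of the KO samples, at up to 0.0675.

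The 2 CMTM members behaved differently from each other. CMTM3 (chromosome 16, 66603874 to 66613892, plus strand) had 249, 274 and 291 reads in the KO samples and 83, 70 and 4 reads in the parental samples, or 4.402, 4.97 and 4.82 CPM in KO samples and 1.45, 1.17 and 0.07035 CPM in the parental samples. All KO samples were above all parental ones, and parental replicate 3 was 18.7-fold below the mean of the other parental samples, a gap that 0.427% of the genes tested exceeded. The log2 fold change of 2.39 (SE 0.81) became 1.8 without that library. CMTM8 (chromosome 3, 32238679 to 32370325, plus strand), described as promoting the internalisation of the EGF receptor, had 8.95, 9.29 and 9.69 CPM in the KO samples and 7.34, 6.36 and 10.85 CPM in the parental samples. Parental replicate 3 was again the library that made the groups overlap, and the log2 fold change was 0.19 (SE 0.22), or 0.4 without it.

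The CMTM genes lie in clusters, and the neighbours of these members were measured as well. On chromosome 16, CMTM4, which lies 858 bases beyond CMTM3 on the opposite strand, stood at 141.5 ± 5.51 CPM in KO samples and 182.9 ± 20.3 CPM in the parental samples (log2 fold change -0.37, adjusted p = 0.059). That gene passed as lower with RLE factors, with DESeq2 and without parental replicate 3, at adjusted p = 0.0439, 0.014 and 8.74e-07. CMTM1 (0.75, adjusted p = 0.191) and CKLF (0.44, adjusted p = 0.186) did not pass, and both share exons with the CKLF-CMTM1 readthrough gene. On chromosome 3, CMTM7 fell to 7.13 ± 0.986 CPM in KO samples, against 11.2 ± 1.05 CPM in the parental samples (-0.65, edgeR adjusted p = 0.0256), and shares 324 exon bases with CMTM6 on the opposite strand. The CMTM7 call was lost without any 1 of the 5 libraries other than parental replicate 3, at adjusted p = 0.0548 to 0.11. CMTM6, which stabilises the checkpoint ligand PD-L1 at the cell surface, did not pass, at 81.98 ± 3.76 CPM in KO samples and 77.65 ± 20.4 CPM in the parental samples (adjusted p = 0.813). CD274, which encodes PD-L1 itself, fell to 3.62 ± 0.357 CPM in KO samples, against 10.8 ± 2.91 CPM in the parental samples (-1.58, adjusted p = 0.00469).

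**Figure D3:**
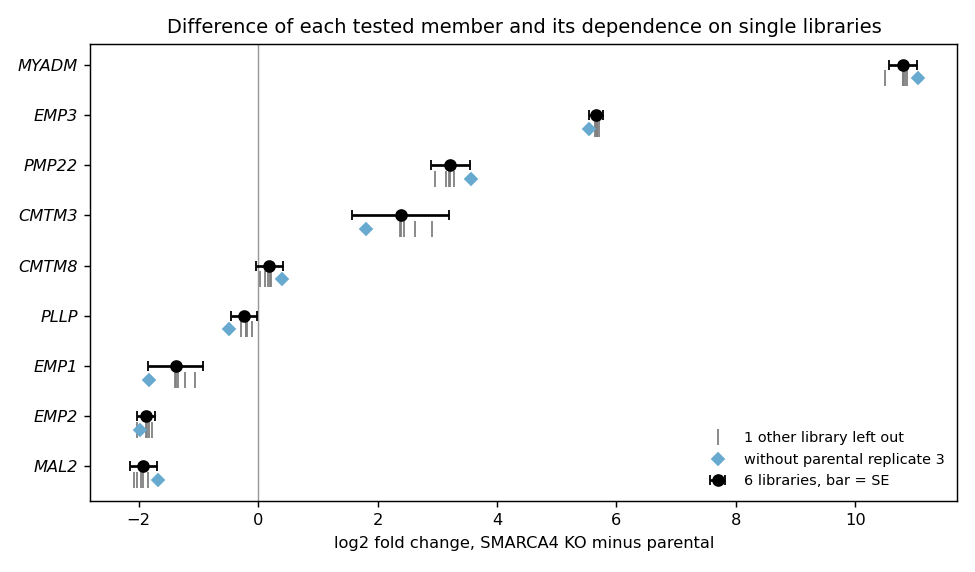
Log2 fold change of SMARCA4 KO minus parental for the 9 tested members (black points with SE), with the value when parental replicate 3 is left out (light blue diamonds) and when 1 other library is left out (grey ticks). MYADM, EMP3 and PMP22 lie at 3.22 or more, MAL2 and EMP2 below -1.8, and leaving out parental replicate 3 moves CMTM3 to 1.8, EMP1 to -1.82, PMP22 to 3.57, MAL2 to -1.68, PLLP to -0.48 and CMTM8 to 0.4.

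The members' order by level per kilobase changed between the groups. The length used is the union of a gene's annotated exons, from 1174 bases for CMTM8 to 8720 for PLLP. The order of genes within a group depends on that choice. In the KO samples it ran EMP3 (68.8 CPM per kb), MYADM (31.8), MAL2 (19.8), PMP22 (9.93), CMTM8 (7.93), EMP1 (3.84), EMP2 (2.2), CMTM3 (1.5) and PLLP (0.675), and the ranges of neighbours in this order did not overlap. In the parental samples it ran MAL2 (75 CPM per kb), EMP1 (10), EMP2 (8.12), CMTM8 (6.97), EMP3 (1.36), PMP22 (1.06), PLLP (0.799), CMTM3 (0.284) and MYADM (0.0174). There the ranges of EMP1, EMP2 and CMTM8 overlapped each other, as did those of EMP3 and PMP22, of PMP22 and PLLP, and of CMTM3 and MYADM. The summed CPM of all 10 members was 389 to 407 in the KO samples and 401 to 469.9 in the parental samples. The coefficient of variation of the 9 tested members had a median of 6.17% in the knockout group and 31.7% in the parental group, where the medians over all genes tested were 6.42% and 23.8%. The genes closest in pattern to EMP3 over the 6 libraries, by Pearson's r of log2 CPM among 10981 genes, were ETHE1 (0.9998), LUM (0.9997) and ST7L (0.9996), and those closest to MYADM were IGFBP4 (0.9998), CAP2 and GNG11 (both 0.9997). For MAL2 they were NDNF (0.9993), NIPAL1 (0.9992) and PARP9 (0.9989), and for EMP1 ADM (0.9996), KRT17 and VEZT (both 0.9987). RHBDD2 (0.9987), ADAP1 (0.9983) and KDF1 (0.9981) came closest to EMP2, and CSF1, RBSN (both 0.9993) and NREP (0.9992) to PMP22. These correlations describe 6 libraries in 2 groups and are high for any gene that separates the groups in the same way.

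Nearest tested protein-coding genes on either side of the 10 members, picked by position after the members' values were known, gave 20 genes, of which 2 rose (ARL2BP among them), 5 fell and 13 did not pass. That is 35% called, beside 27.6% of all genes tested. The 20 genes lay 0 to 6274742 bases from the members, so the set is not confined to genes close by. Some of the 20 are also counted among the other genes of the families. Without parental replicate 3, 15 of the 20 passed (6 rose and 9 fell), and without any 1 of the other libraries between 1 and 5 passed. The shares of all genes tested were 61.6% in the former fit and 14.6% to 20.7% in the latter.

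The other genes of the families were listed apart from the members. Of 9 further CMTM, MAL and MYADM relatives 6 were tested, of which CMTM7 alone fell, 5 did not pass and none rose, at a median log2 fold change of -0.02 against 0.02 over all genes tested. The share called was 16.7%, beside 27.6% of all genes tested. With any 1 library other than parental replicate 3 left out no relative passed by edgeR. Over the fits with any 1 library left out, parental replicate 3 included, between 1 and 4 had an unadjusted p under 0.05. DESeq2 called 2 and limma-voom 1 over all 6 libraries. Leaving out parental replicate 3 gave 1 that rose and 3 that fell (66.7% called, beside 61.6% of all genes tested). Among 10 tested MARVEL genes of tight junctions and vesicles, 4 fell, 3 rose and 3 did not pass (median -0.17). Here 70% were called, beside 27.6% of all genes tested. MARVELD3 fell to 0.810 ± 0.0803 CPM in KO samples, against 35.2 ± 0.452 CPM in the parental samples (log2 fold change -5.44, edgeR adjusted p = 8.98e-06), and MARVELD2, which encodes tricellulin, fell to 22.9 ± 1.54 CPM, against 80.25 ± 10.5 CPM in the parental samples (-1.81, adjusted p = 0.000291). SYP, the synaptophysin gene of neuroendocrine vesicles, rose to 2.69 ± 0.126 CPM in KO samples, against 0.379 ± 0.0561 CPM in the parental samples (2.82, adjusted p = 0.000239).

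Of 17 tetraspan genes related to PMP22 with a row, 7 were tested and none passed by edgeR, where 1 had an unadjusted p under 0.05, DESeq2 called 1 and limma-voom 0. Over all genes tested 27.6% passed by edgeR, and 61.6% did without parental replicate 3. PERP, a desmosomal p53 target and the most abundant of them, had 284 ± 9.88 CPM in KO samples and 356 ± 115 CPM in the parental samples (adjusted p = 0.389, and lower at 6.76e-08 without parental replicate 3, where 2 of the 7 fell). LHFPL2 had 81.7 ± 3.19 CPM in KO samples and 71.5 ± 8.29 CPM in the parental samples (adjusted p = 0.273). Of 24 claudins, the junction branch of the superfamily, 9 were tested, of which 4 fell and 5 did not pass, and none rose (median -0.8). That is 44.4% called, beside 27.6% of all genes tested. CLDN4 fell to 4.10 ± 0.479 CPM in KO samples, against 496 ± 200 CPM in the parental samples (-6.92, edgeR adjusted p = 0.000153), CLDN7 changed by -4.18 (adjusted p = 2.69e-05) and CLDN3 by -1.47 (adjusted p = 0.00118). Without parental replicate 3, 7 of 10 tested claudins fell and none rose, beside 61.6% of all genes tested that passed. With any 1 other library left out 3 claudins passed, beside 14.6% to 20.7% of all genes tested.

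**Figure D4:**
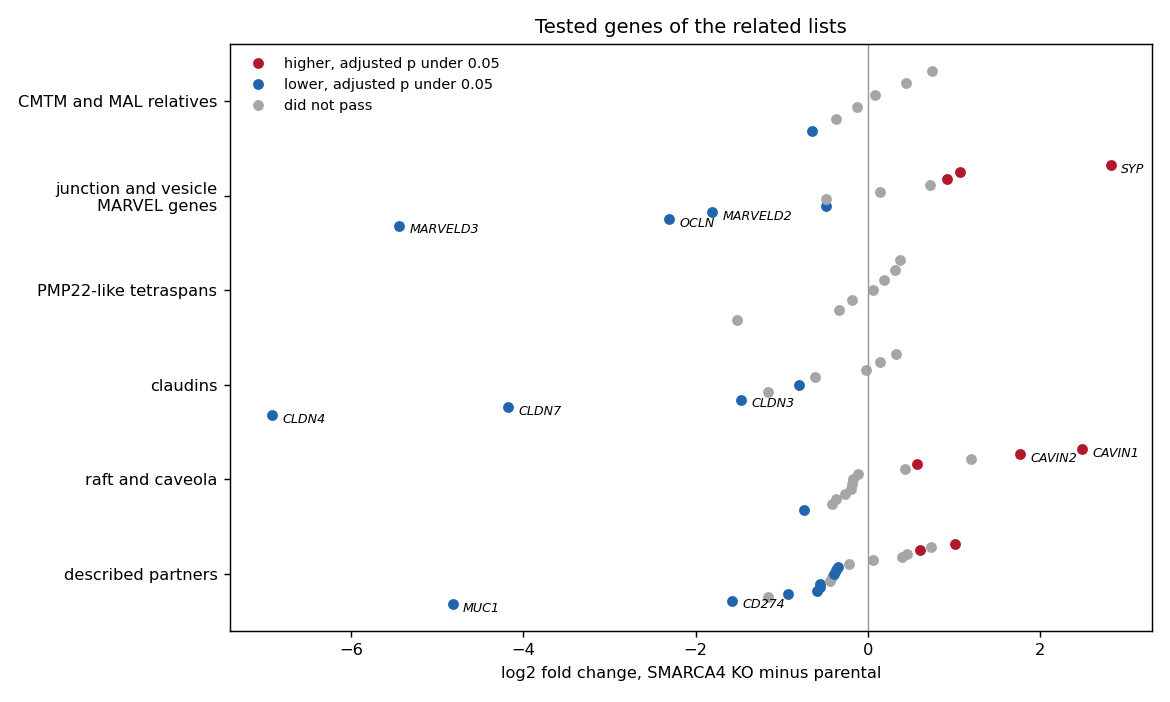
Log2 fold change of SMARCA4 KO minus parental (horizontal axis) for every tested gene of 6 lists related to the members, coloured by whether it passed an adjusted p of 0.05 by edgeR as higher (red) or lower (blue). CLDN4 at -6.92 and MARVELD3 at -5.44 lie farthest to the left and SYP at 2.82 farthest to the right.

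Of 13 tested raft and caveola genes, 3 rose, 1 fell and 9 did not pass (median -0.17). That is 30.8% called, near the 27.6% of all genes tested. The caveola coat gene CAVIN2 rose to 50.01 ± 1.53 CPM in KO samples, against 14.7 ± 1.01 CPM in the parental samples (log2 fold change 1.77, edgeR adjusted p = 0.000125). CAVIN1, another caveola coat gene, rose to 501.3 ± 6.16 CPM in KO samples, against 89 ± 55.3 CPM in the parental samples (2.49, adjusted p = 0.0223), a call lost without any 1 KO sample at up to 0.0716. FLOT1, a flotillin gene, changed by 0.57 (adjusted p = 0.0209, lost without any 1 library other than parental replicate 3, at up to 0.0863). The other flotillin gene, FLOT2, was more abundant and did not pass (-0.17, adjusted p = 0.428). The gene that fell was the caveolin gene CAV2 (-0.74, adjusted p = 0.0497), a call also lost without any 1 library other than parental replicate 3. With parental replicate 3 left out, 4 of these genes rose and 6 fell (76.9% called, beside 61.6% of all genes tested). Without any 1 other library 1 or 2 passed, beside 14.6% to 20.7% of all genes tested. Of 19 tested genes whose products are described as partners of the members or of their relatives, 9 fell, 2 rose and 8 did not pass (median -0.39). The share called was 57.9%, beside 27.6% of all genes tested. MUC1, a mucin carried with MAL2, fell to 10.65 ± 1.71 CPM in KO samples, against 300.5 ± 223 CPM in the parental samples (-4.82, adjusted p = 0.00238). RAC1, the small GTPase linked to MYADM, changed by -0.59 (adjusted p = 0.00625, and 0.0504 without KO replicate 2). Without parental replicate 3 all 19 partners passed, 5 rising and 14 falling, and without any 1 other library between 4 and 7 passed. Calls rose over the whole table as well, with 61.6% of all genes tested in the former fit and 14.6% to 20.7% in the latter. EGFR, whose product CMTM8 acts on, stood at 695 ± 33.2 CPM in the KO samples and at 964, 936 and 107 CPM in the parental samples, where parental replicate 3 again lay apart (adjusted p = 0.965). EGFR, MALL, FLOT2 and CAV2, as well as ZNF761, COL1A1 and COL1A2, were chosen after their values were seen.

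Markers of cell types were set beside these values, in a table where 27.6% of all genes tested passed. Of 10 epithelial identity genes 9 fell and 1 did not pass, with a summed level of 3178 to 3445 CPM in KO samples and 8097 to 8474 CPM in the parental samples. KRT19 (-5.4, edgeR adjusted p = 8.98e-06), ESRP1 (-7.44, 1.77e-05) and GRHL2 (-8.16, 2.34e-05) had the smallest adjusted p. Of 10 fibroblast and endothelial genes 5 were tested, of which LUM (6.18, adjusted p = 8.98e-06), COL3A1 (5, adjusted p = 0.00562) and CDH5 (2.74, adjusted p = 0.0147) rose, COL1A1 fell (-1.46, adjusted p = 0.0408) and 1 did not pass. No gene of that list fell with any 1 KO sample left out. CDH5 no longer passed with KO replicate 1, KO replicate 3 or parental replicate 1 left out, at up to 0.0641. That list's summed level was 54.3 to 59.5 CPM in KO samples and 39.8 to 110.6 CPM in the parental samples, and the fibroblast gene COL1A2 had at most 0.176 CPM in any library. Of 12 leukocyte genes 4 were tested and CD79A and LYZ fell (-2.51 and -2.62, adjusted p = 0.00446 and 0.00455). Both had few reads: CD79A 10 in all KO samples together and 59 in all parental samples, and LYZ 14 and 89. The summed level of the whole leukocyte list was 2.19 to 2.6 CPM in KO samples and 3.42 to 4.13 CPM in the parental samples. PTPRC, CD2 and MS4A1 had 0 reads in all 6 libraries. The part of these marker changes in the members' values was not tested.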

How the data were processed

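The authors deposited 1 table of raw read counts per gene symbol for each of 6 libraries, with 59050 symbols and 5 classes of unassigned reads, which held 13.8% to 15.3% of the reads and entered neither library sizes nor tests. The hg38 build, HTSeq 0.11.0 and TopHat2 2.1.1 are named per the submitters' processing notes. Which annotation release and strand setting were used is not given in the sources used here. Groups and replicate numbers came from the sample titles. After filterByExpr and TMM scaling, a robust two-sided quasi-likelihood F-test with group as the only term was run in edgeR 4.0.16 (R 4.3.3), with Benjamini-Hochberg adjustment over 17809 genes and a threshold of 0.05. The SE of a log2 fold change came from the F value. Positions and exon lengths were from GENCODE 29 on GRCh38, matched by symbol. Reads in exon bases shared by genes can be set aside as ambiguous by the counting (3.78% to 4.38% of reads).

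The members and lists were chosen with earlier results of these data known. Genes named were the 10 members, SMARCA4, up to 3 passing genes per list, taken by smallest adjusted p, or the 2 most abundant where none passed, CMTM neighbours, genes overlapping or like the members, and those said to be chosen later. Some genes that this rule names are not reported here. Symbols LHFP, PTRF, SDPR and PRKCDBP are older names listed beside the current ones and had no row. Each library was left out in turn, and the tests were repeated in DESeq2 1.42.0 and limma-voom (limma 3.58.1), with RLE or with upper-quartile factors, unfiltered, with a filter of 1 CPM in 3 libraries, and blocked by replicate number. A simulated table with 200 changed genes was used to check the fit. At an adjusted p under 0.05 it recovered 0 of 66 tested genes changed 1.5-fold, 9 of 66 changed 2-fold and 51 of 63 changed 4-fold. Of its 65 calls 5 were false. A gene that did not pass may thus still differ, above all at 2-fold or less.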

Additional observations from a re-analysis of the deposited data

How the results depend on the processing

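Counts of genes passing an adjusted p of 0.05 depended most on parental replicate 3. With 1 library left out, the genes called over the whole table ranged from 2692 to 11325 around 4912, the members called from 5 to 9 around 5, and the lists as follows. CMTM and MAL relatives ranged from 0 to 4 around 1, PMP22-like tetraspans from 0 to 2 around 0, claudins from 3 to 7 around 4, described partners from 4 to 19 around 11, raft and caveola genes from 1 to 10 around 4, myelin genes from 2 to 5 around 3, and fibroblast and endothelial genes from 2 to 6 around 4. The upper end of each range was the fit without parental replicate 3, and the cause was not tested. The 3 libraries of a group share replicate numbers with the other group, but same-numbered libraries did not deviate together (r of -0.05, 0 and -0.07 over 17809 genes), and no library correlated best with its own number. With the replicate number as a block 3040 genes passed in all, with 0 CMTM and MAL relatives (2 at an unadjusted p under 0.05), 5 described partners, 2 raft and caveola genes and 2 fibroblast and endothelial genes. DESeq2 called 7 of the 9 tested members, CMTM3 and EMP1 in addition to the 5, beside 33.6% of all genes tested. The limma-voom fit called 6, with CMTM3 added, beside 28% of all genes tested. Nothing is read from these member counts either, since the members were chosen on this comparison. RLE factors and DESeq2 each called 2 CMTM and MAL relatives, DESeq2 called 1 PMP22-like tetraspan, and at least 1 CPM in 3 libraries left 1 tested leukocyte gene, of which 0 passed (0 at an unadjusted p under 0.05). The direction of CMTM6, which did not pass over all 6 libraries, turned to -0.17 without parental replicate 3 (adjusted p = 0.00842), against up to 0.21 with 1 of the other libraries left out, and the cause was not tested. No member changed direction under any of these alternatives. MYADM had 4, 2 and 5 reads in the parental libraries, so its ratio is limited by counting error. CMTM3 had 4 reads in parental replicate 3, against 83 and 70 in the other parental libraries. Its SE of 0.81 includes that gap, whose cause was not tested.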
